A study of Mus musculus with 8 samples.

Results

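The genes described here are 10 ion channel genes of brown fat, Kcnk3, Kcnh6, Otop1, P2rx5, Trpv2, Lrrc8a, Clic1, Clic4, Clic5 and Clic6, out of 54532 genes in the deposited read count table. They were chosen by symbol, and each symbol matched 1 row. Kcnh6 and Clic6 were included because their counts were lower and higher, respectively, in the libraries labelled knockout, so their differences between the groups are a description and carry no test. The counts come from whole interscapular brown fat of 8 male mice aged 7 months, each held at 4 °C for 24 h in metabolic cages (a CLAMS system) on normal chow. All 8 mice carried floxed Pparg (Pparg-flox), which encodes PPARG, a nuclear receptor needed to form fat cells. In 4 of them the labels add Myl1-Cre, a recombinase driven by the gene of a myosin light chain that is also a fast skeletal muscle gene, and the other 4 without Cre are the control. Both groups were cold-exposed, so the effect of cold itself is not measured. Cre was driven by Myl1, and which cells of the tissue it acted in was not measured.

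The targeted gene was examined first. Pparg RNA was higher, not lower, with Cre, at 279, 267, 269 and 320 CPM (counts scaled to a common library size by TMM) against 201, 200, 186 and 202 CPM in the control (log2 fold change 0.52 ± 0.09 SE, edgeR quasi-likelihood adjusted p = 0.0328). The call was lost when any 1 library was left out (adjusted p = 0.0505 to 0.119). Gene-level counts include exons outside the floxed part. The group is therefore called the libraries labelled knockout, and every direction rests on the labels. Libraries held 12226608 to 19268945 counts, and 13756 genes passed the filter on low counts, all 10 channel genes among them. Kcnh6 passed with 33 to 236 counts a library, Trpv2 with 23 to 58, and Clic6 only through the group where it was high. Defining markers of brown fat were abundant in all 8 libraries, with Ucp1, the mitochondrial uncoupling protein, at 7910 to 12800 CPM. All 15 skeletal muscle markers lay above 0 in log2 fold change. None passed in edgeR (0.385% of all genes tested did), but 13 had an unadjusted p under 0.05, where 15.2% of all genes tested did. DESeq2 called 2 (2.79% of all genes) and limma-voom 0 (0.385%). As markers of the same tissue, these genes are not independent observations. Their mean log2 CPM, used here as a muscle score, was 8.19 to 9.43 in the control and 8.99 to 9.88 in the libraries labelled knockout. The muscle gene Myl1, not among the 15, was at 378 ± 68.8 CPM in the control and 367 ± 105 CPM (SD, n = 4) in the libraries labelled knockout. Its log2 fold change was -0.05 ± 0.20 (SE, edgeR adjusted p = 0.94). The 8 epithelial markers summed to at most 0.374 CPM in the control and 0.87 CPM in the libraries labelled knockout.

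Brown fat cells answer noradrenaline with a change in membrane voltage, a rise in calcium and cyclic AMP, and heat production by mitochondria. Potassium leak channels such as the product of Kcnk3 (TASK-1) hold the resting voltage, proton and cation channels shift pH and calcium, and volume-regulated anion channels open when a cell swells. Chloride intracellular channels, the CLIC proteins, are small glutathione transferase-like proteins that exist both in the cytosol and in membranes.

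Per length of exon, Kcnk3 was the most abundant of the 10 genes in both groups. In the control its level was 128 ± 23.1 CPM per kb (SD, n = 4), ahead of Otop1 at 72.3 ± 8.08, Clic4 at 41.5 ± 2.72, P2rx5 at 26.0 ± 2.87, Clic5 at 19.3 ± 2.90 and Clic1 at 9.85 ± 0.667 CPM per kb. Neighbours in this order did not overlap between libraries. Kcnh6 (3.18 ± 1.07 CPM per kb) and Lrrc8a (2.76 ± 0.457) followed, with overlapping libraries, then Trpv2 at 0.529 ± 0.100 and Clic6 at 0.0163 ± 0.0112 CPM per kb. In the libraries labelled knockout the first 6 places were the same, while Lrrc8a (2.85 ± 0.191 CPM per kb) now stood above Kcnh6 (1.15 ± 0.403). The level of Lrrc8a is uncertain in both groups, because most of its exon bases are also annotated to another gene. Clic6, at 0.525 ± 0.219 CPM per kb, overlapped Trpv2 at 0.552 ± 0.196, and P2rx5 and Clic5 overlapped each other. With the longest transcript as the length, Clic5 moved above P2rx5 in both groups and Otop1 overlapped Clic4.

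**Figure D1:**
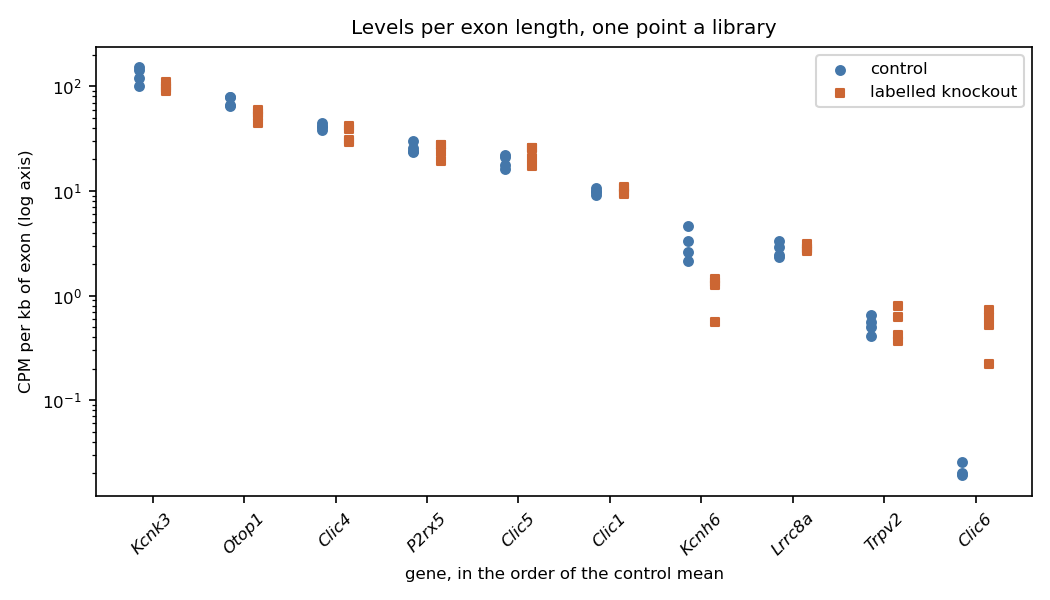
Level of each of the 10 genes in CPM per kb of exon (log axis), 1 point a library, for the control (circles) and the libraries labelled knockout (squares), in the order of the control mean. The control library at 0 for Clic6 is not drawn; Kcnk3 leads at 100 to 152 CPM per kb in the control, and Clic6 in the libraries labelled knockout reaches the range of Trpv2.

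Kcnk3 (ENSMUSG00000049265, GRCm38 chr5:30588170-30625271, plus strand) encodes an acid-sensitive potassium leak channel. Its levels were 603, 474, 398 and 565 CPM in control libraries 1 to 4 and 357, 382, 401 and 433 CPM in the libraries labelled knockout 1 to 4. The groups overlapped through control 3, which lay below labelled knockout 3 and 4. The log2 fold change of the libraries labelled knockout over the control was -0.38 ± 0.13 (SE), with an edgeR adjusted p over all genes of 0.229. Adding the muscle score to the fit gave -0.21 (adjusted p = 0.759). Exons of Kcnk3 overlap those of Gm9899, a transcript of the opposite strand, over 229 bases, and the sources used here do not say whether counting used strand, so a small part of its reads cannot be assigned with certainty. Gm9899 itself had a log2 fold change of -0.46 ± 0.17 (adjusted p = 0.254).

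Kcnh6 (ENSMUSG00000001901, chr11:106008124-106034549, plus strand) encodes a voltage-gated potassium channel of the ether-a-go-go-related (ERG) type, best known from nerve cells. It stood at 9.28, 11.8, 7.65 and 16.3 CPM in the control and at 5.14, 4.48, 4.77 and 1.98 CPM in the libraries labelled knockout. Every library labelled knockout lay below every control, and labelled knockout 4 was the lowest of the 8. The group means were 11.3 ± 3.79 and 4.09 ± 1.43 CPM (SD, n = 4), a control level 2.76-fold the other, and the fitted log2 fold change was -1.47 ± 0.30 (SE). Leaving out each library in turn kept this value between -1.61 and -1.23, and adding the muscle score gave -2.04. As Kcnh6 was chosen for this difference in these same libraries, the range is no support for it, and no test of it is given. None of its 6 tested neighbours within 100 kb passed, with log2 fold changes from -0.42 ± 0.20 for Taco1 upward, and the nearest of the 6, Dcaf7, at 2.3 kb, had -0.19 ± 0.09 (lowest adjusted p of the 6 = 0.343, edgeR).

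Otop1 (ENSMUSG00000051596, chr5:38275972-38304217, plus strand) encodes otopetrin, a proton-selective channel known from the inner ear and from sour taste cells. Its levels were 273, 228, 222 and 273 CPM in the control and 155, 191, 179 and 206 CPM in the libraries labelled knockout. The groups did not overlap, as in 8.1% of all genes tested. The log2 fold change was -0.45 ± 0.11 (SE) and missed the threshold in edgeR (adjusted p = 0.128), while it passed in DESeq2 (adjusted p = 0.0259). Adding the muscle score gave -0.30 (edgeR adjusted p = 0.602). Kcnk3 and Otop1 kept a near constant proportion, with 1.80 to 2.21 CPM of Kcnk3 per CPM of Otop1 in the control and 2.00 to 2.31 in the libraries labelled knockout. Both genes lie on chromosome 5, 7.65 Mb apart.

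Markers of several cell types were read beside these channels. Among 12 brown and general fat cell markers, 10 lay below 0, their median log2 fold change being -0.34 against 0.002 over all genes tested. None of the 12 passed in edgeR, 4 had an unadjusted p under 0.05 (15.2% of all genes tested), DESeq2 called 3 (2.79% of all genes) and limma-voom 0. Plin1, the coat protein of lipid droplets, was at -0.50 ± 0.12 and Ucp1 at -0.30 ± 0.14 (edgeR adjusted p = 0.116 and 0.344), both named here with their values known. The 2 markers above 0 were Lep at 0.40 ± 0.29 and Cox7a1 at 0.17 ± 0.11 (edgeR adjusted p = 0.535 and 0.467). The summed level of the 12 was 27900 to 34100 CPM in the control and 22600 to 29400 CPM in the libraries labelled knockout. All 12 macrophage markers lay above 0, with a median of 0.39 and summed levels of 117 to 166 CPM in the control and 125 to 222 CPM in the libraries labelled knockout. None of these passed in edgeR, 3 had an unadjusted p under 0.05, and DESeq2 called 2 and limma-voom 0. The skeletal muscle markers, all above 0, had a median of 0.77. The part of these markers' cells in the values of Kcnk3, Kcnh6 and Otop1 was not tested. The fits with the muscle score cannot settle it, because the score itself differed between the groups. Its mean was 8.88 ± 0.523 in the control and 9.61 ± 0.415 (SD, n = 4) in the libraries labelled knockout. In whole tissue, fewer fat cells and less RNA of a gene per fat cell cannot be told apart.

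The promoters of Kcnh6 and Otop1 are shown because these were the genes with the clearest separation that have an entry in the RefSeq promoter set used (GRCm38.p6, 250 bases before to 50 after the start; 7 of the 10 genes matched). Capitals mark TGACG, the half-site of the cyclic AMP response element that cold-activated signalling uses, on either strand.
Kcnh6, chr11:106007898-106008197, plus strand: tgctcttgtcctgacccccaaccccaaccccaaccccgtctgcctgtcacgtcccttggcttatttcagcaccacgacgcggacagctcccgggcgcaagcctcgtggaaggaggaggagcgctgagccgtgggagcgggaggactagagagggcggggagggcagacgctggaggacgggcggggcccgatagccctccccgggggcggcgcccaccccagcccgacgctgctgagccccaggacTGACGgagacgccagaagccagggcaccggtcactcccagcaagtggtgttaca
Otop1, chr5:38277154-38277453, plus strand: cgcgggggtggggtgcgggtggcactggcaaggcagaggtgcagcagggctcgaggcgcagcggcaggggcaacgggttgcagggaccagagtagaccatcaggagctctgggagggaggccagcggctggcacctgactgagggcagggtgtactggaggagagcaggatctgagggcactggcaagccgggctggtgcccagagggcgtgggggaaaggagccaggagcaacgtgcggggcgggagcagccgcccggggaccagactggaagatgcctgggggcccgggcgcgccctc

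Both windows are rich in G and C, at 69.3% for Kcnh6 and 71.7% for Otop1. The half-site TGACG occurred once for Kcnh6, 4 bases before the start, and not for Otop1, and 20.8% of all 32851 promoter windows of this length hold it. The nuclear receptor half-site AGGTCA (16.3% of all windows) was found in the windows of Clic1 and Clic5 and in neither printed window. A direct repeat of that kind of site with a spacer of 1 base (the DR1 motif), the form PPARG with its partner RXR binds, was in 0.381% of all windows and in none of the windows of the 7 genes. The full element TGACGTCA (1.79% of all windows, each match also holding TGACG) was found in the window of Lrrc8a. Both strands were searched, and a match is a run of letters, not a shown binding site.

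**Figure D2:**
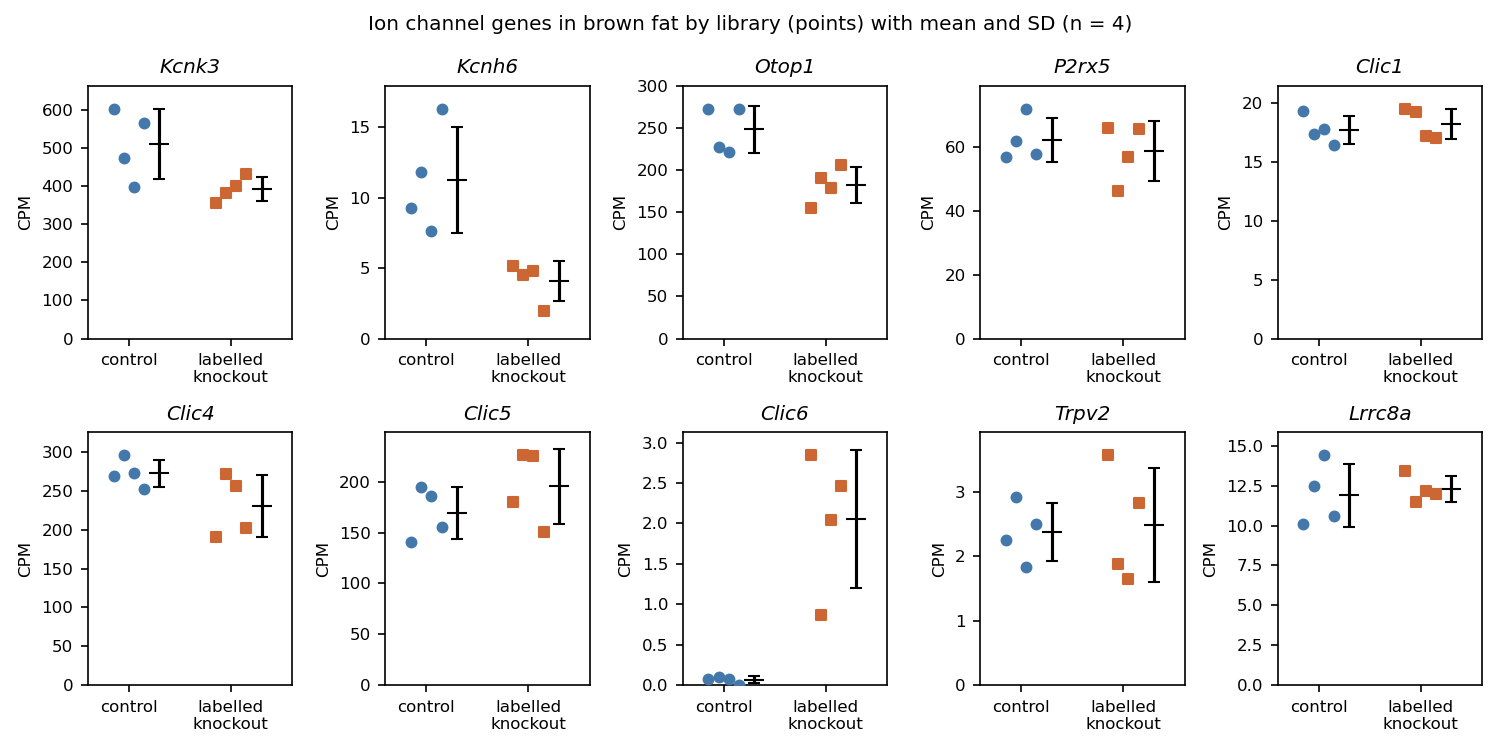
Level of each of the 10 genes in CPM by library (linear axes from 0) for the 4 control libraries (circles) and the 4 libraries labelled knockout (squares), with the mean and SD of each group beside its points. Kcnh6, Otop1 and Clic6 show no overlap between the groups, as 8.1% of all genes tested do, and the other 7 genes overlap. Kcnh6 and Clic6 were chosen for their difference.

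P2rx5 (ENSMUSG00000005950, chr11:73160421-73172685, plus strand), an ATP-gated cation channel used as a surface marker of brown and beige fat cells, did not pass. It was at 57.0, 61.9, 72.0 and 58.0 CPM in the control and 66.1, 46.4, 56.8 and 65.8 CPM in the other group, with overlapping ranges (log2 fold change -0.08 ± 0.12 SE, edgeR adjusted p = 0.791). Trpv2 (ENSMUSG00000018507, chr11:62574486-62600515, plus strand) encodes a calcium-permeable TRP channel that mouse brown fat needs for full heat production. Its levels were 2.25, 2.91, 1.83 and 2.50 CPM in the control and 3.56, 1.87, 1.65 and 2.83 CPM in the other group. Labelled knockout 1 was the highest and labelled knockout 3 the lowest of the 8 libraries, and the log2 fold change was 0.04 ± 0.28 (SE, adjusted p = 0.962).

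Lrrc8a (ENSMUSG00000007476, chr2:30237715-30263790, plus strand) encodes the obligatory subunit of the volume-regulated anion channel. It stood at 10.1, 12.5, 14.4 and 10.6 CPM in the control and 13.4, 11.5, 12.2 and 12.0 CPM in the libraries labelled knockout, all 4 of them within the control range (log2 fold change 0.04 ± 0.13 SE, edgeR adjusted p = 0.911). Its level is uncertain because 66.2% of its exon bases are also annotated, on the same strand, to the protein-coding gene Gm28035, which held 0 to 0.18 CPM. The sources used here do not say how reads shared by both genes were counted.

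The partner subunits of this channel had fitted values from -0.57 to 0.03, and their difference from Lrrc8a was not tested. Lrrc8d, a subunit that favours transport of organic molecules, was at 82.6, 64.4, 49.7 and 70.9 CPM in the control and 41.7, 38.9, 48.0 and 50.9 CPM in the libraries labelled knockout. Of the latter, 3 lay below every control, and labelled knockout 4 lay just above control 3. Its log2 fold change of -0.57 ± 0.15 (SE) missed the threshold in edgeR (adjusted p = 0.128). It passed in DESeq2 (0.0281), in edgeR without a filter on low counts (0.0429) and in edgeR without control 3 (0.0428). With the muscle score added it was -0.38 (adjusted p = 0.609). Lrrc8b was at -0.57 ± 0.22 (adjusted p = 0.263), or -0.31 with the score added (0.799), and Lrrc8c at 0.03 ± 0.17 (adjusted p = 0.96). Per kb of exon Lrrc8d was the most abundant of the 5 subunits in the control, at 5.32 CPM per kb against 3.60 for Lrrc8c, 2.76 for Lrrc8a, 1.91 for Lrrc8b and 0.0156 for Lrrc8e. In the libraries labelled knockout Lrrc8c stood first, at 3.67 CPM per kb, and Lrrc8d at 3.57. The share of Lrrc8d in the summed level per kb was 39.0 ± 7.07% in the control and 31.3 ± 3.47% (SD, n = 4) in the libraries labelled knockout, with overlapping ranges. Because the level of Lrrc8a is uncertain, so are its place among the subunits and the share of Lrrc8d.

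Among the CLIC genes, Clic6 (ENSMUSG00000022949, chr16:92485736-92541243, plus strand) was close to silent in the control. Its product is a chloride intracellular channel with a long extra stretch at its start, known from secretory epithelia. It had 1, 2, 1 and 0 counts in control libraries 1 to 4 and 36, 13, 32 and 41 counts in the libraries labelled knockout 1 to 4, or 0.0749, 0.1, 0.0797 and 0 against 2.84, 0.87, 2.04 and 2.46 CPM. All 4 libraries labelled knockout lay above all 4 controls, and labelled knockout 2 was the lowest of its group. Summed over the groups, 122 against 4 counts gave a ratio of 29.4 with an exact 95% interval of 11.2 to 110. The interval covers counting error only, neither variation between mice nor the choice of Clic6 for this difference. The fitted log2 fold change was 4.74 ± 0.59 (SE), lay between 4.43 and 5.06 when each library was left out, and was 4.92 once the muscle score was added. Clic6 was chosen for this difference in these same libraries, so the range is no support for it, and no test of it is given. Of its neighbours within 100 kb, Rcan1, an inhibitor of calcineurin, was at 0.49 ± 0.30 and Runx1, a blood cell transcription factor, at 0.77 ± 0.27, and neither passed (edgeR adjusted p = 0.46 and 0.224).

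The 3 other CLIC genes were expressed in every library and none passed. Clic4 (ENSMUSG00000037242, chr4:135213969-135272814, minus strand), known from blood vessel and many other cells, was at 269, 296, 273 and 253 CPM in the control and 191, 272, 257 and 203 CPM in the libraries labelled knockout, of which numbers 1 and 4 lay below every control (log2 fold change -0.24 ± 0.12 SE, edgeR adjusted p = 0.374). Clic5 (ENSMUSG00000023959, chr17:44188584-44280172, plus strand), which anchors membrane to the actin cortex in hair cells and kidney podocytes, was at 141, 195, 186 and 156 CPM in the control and 180, 226, 225 and 151 CPM in the libraries labelled knockout, with overlap (0.21 ± 0.15, adjusted p = 0.537). Adding the muscle score turned the value of Clic5 to -0.09. Clic1 (ENSMUSG00000007041, chr17:35049966-35058749, plus strand), a widely expressed member, varied least over the libraries labelled knockout in the CLIC family, with a coefficient of variation of 7.20% there and 6.78% in the control. It ranged from 16.4 to 19.5 CPM over the 8 libraries (0.04 ± 0.10, adjusted p = 0.89).

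The proportion of Clic4 to Clic5 was lower in the libraries labelled knockout, a ratio chosen after the values were seen and given without a test. It was 1.91, 1.52, 1.47 and 1.62 in control libraries 1 to 4 and 1.06, 1.20, 1.14 and 1.34 in the libraries labelled knockout 1 to 4, or 1.63 ± 0.197 and 1.18 ± 0.118 (SD, n = 4). The groups did not overlap in this ratio, though they did in each gene alone. The share of all gene pairs whose ratios separate the groups was not measured. Control 1 had the highest ratio and the lowest muscle score (8.19), and labelled knockout 1 the lowest ratio and the highest score (9.88). Controls 3, 4 and 2 showed no such order, with scores of 8.83, 9.08 and 9.43 at ratios of 1.47, 1.62 and 1.52, and labelled knockout 4 had a score of 8.99 at a ratio of 1.34. Endothelial markers did not move with the groups, with a median log2 fold change of 0.00 over 8 genes and summed levels of 788 to 1200 CPM in the control and 907 to 998 CPM in the libraries labelled knockout. The part of muscle RNA in the ratio was not tested.

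**Figure D3:**
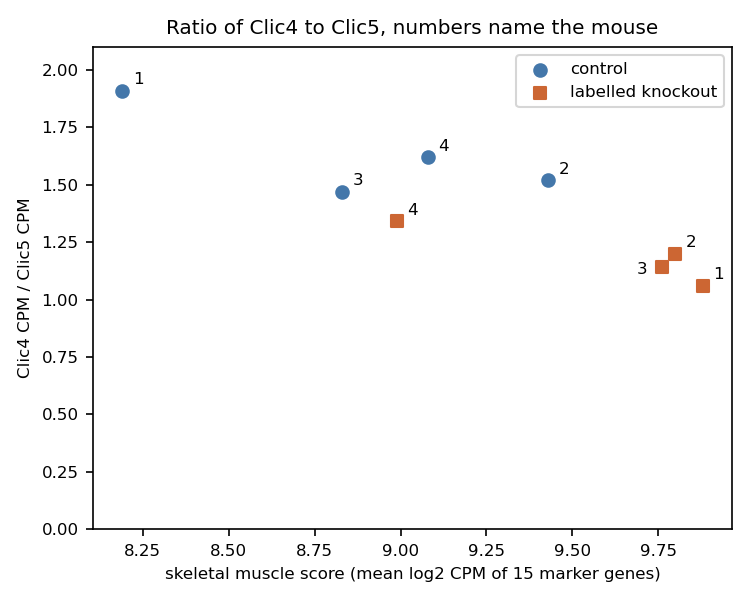
Ratio of Clic4 CPM to Clic5 CPM (vertical axis from 0) against the skeletal muscle score, the mean log2 CPM of 15 marker genes, for the control (circles) and the libraries labelled knockout (squares), each numbered by mouse. All 4 libraries labelled knockout sit at 1.06 to 1.34, below the control at 1.47 to 1.91, and 3 of them also have the highest scores. The ratio was chosen after its values were seen.

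None of the 8 genes not chosen for their values passed the threshold in edgeR, against 0.385% of all genes tested (53 of 13756), made up of 0.291% (40 genes) higher and 0.0945% (13 genes) lower with Cre. Kcnk3 and Otop1 had an unadjusted edgeR p under 0.05, at 0.0157 and 0.00227, where 15.2% of all genes did. DESeq2 called 1 of the 8, Otop1, and limma-voom 0, where these tools called 2.79% and 0.385% of all genes. Otop1 was the 1 gene of the 8 whose groups did not overlap. Over all genes tested, the libraries labelled knockout lay wholly below the control in 4% and wholly above it in 4.1%. Over all 10 genes, 5 log2 fold changes lay above 0 and 5 below, with a median of -0.02. The call counts over all genes rested on single libraries and on the muscle score, from 24 genes without labelled knockout 1 to 75 without control 3, and 11 with the score as a covariate.

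**Figure D4:**
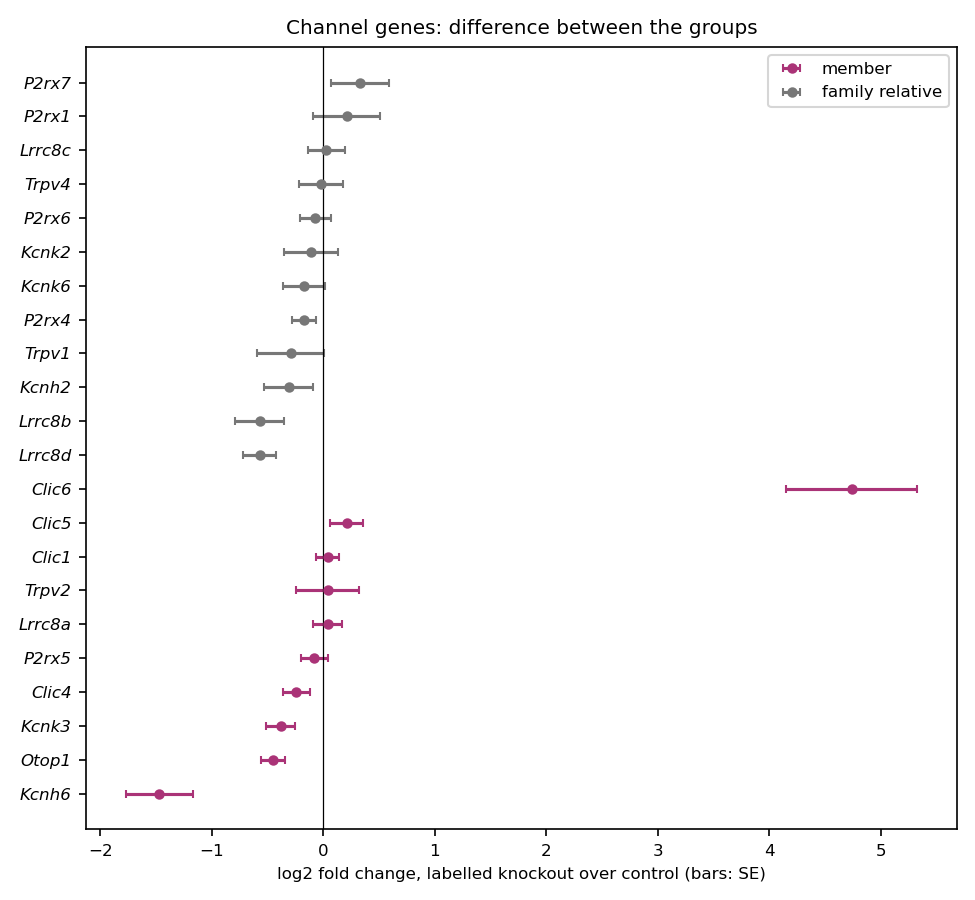
Log2 fold change with its SE, labelled knockout over control, for the 10 genes (dark) and the 12 tested relatives of the same gene families (grey). Clic6 at 4.74 and Kcnh6 at -1.47, both chosen for their difference, stand apart, and the relatives lie between -0.57 for Lrrc8d and Lrrc8b and 0.33 for P2rx7.

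Of 38 other genes of the Kcnk, Kcnh, Otop, P2rx, Clic, Trpv and Lrrc8 families, 10 had no count in any library and 12 were tested, of which 9 lay below 0, with a median of -0.14. None passed in edgeR, and 2 of the 12 had an unadjusted p under 0.05, where 15.2% of all genes tested did. DESeq2 called 1, Lrrc8d, against 2.79% of all genes, and limma-voom 0. Of the tandem-pore potassium channels, Kcnk2, a stretch- and lipid-gated leak channel, was at 3.28 ± 0.910 CPM in the control and 3.07 ± 0.393 CPM in the libraries labelled knockout, an uncertain value since 604 exon bases overlap a transcript of the opposite strand. Kcnk6 was at 3.28 ± 0.535 and 2.93 ± 0.192 CPM. Kcnh2, the ERG channel of the heart, was at 2.85 ± 0.548 and 2.29 ± 0.323 CPM (log2 fold change -0.31 ± 0.22, adjusted p = 0.53). Neither of the other two otopetrin genes exceeded 0.0501 CPM in any library, and Clic3 did not exceed 0.316 CPM, levels within the limit of 0.15 to 0.25 CPM that a count of 0 allows per library or near it.

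Among the P2X receptors, P2rx4, at 20.7 ± 2.37 CPM in the control and 18.3 ± 1.33 CPM in the libraries labelled knockout, and P2rx6, at 16.1 ± 3.13 and 15.3 ± 0.939 CPM, came after P2rx5 in CPM. Per kb of exon the control levels were 2.95 for P2rx4 and 4.02 for P2rx6, against 26.0 CPM per kb for P2rx5. Exons of P2rx6 overlap those of Slc7a4 on the opposite strand over 554 bases, so its value is uncertain. P2rx1 was at 2.31 ± 0.653 CPM in the control and 2.67 ± 0.922 CPM in the other group, and P2rx7, a receptor of immune cells, at 1.87 ± 0.573 and 2.36 ± 0.286 CPM. Trpv4, a channel of swelling and warmth, was at 3.81 ± 0.496 and 3.79 ± 0.699 CPM, and Trpv1, the capsaicin receptor, at 1.27 ± 0.286 and 1.04 ± 0.229 CPM. Trpv1 lies 61.6 kb from P2rx5 on chromosome 11.

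A further 27 channel genes described in fat cells, of which 22 were tested, had a median log2 fold change of 0.14, and none passed (edgeR, 2 at an unadjusted p under 0.05 against 15.2% of all genes, 0 in DESeq2 and in limma-voom). The most abundant were the outer mitochondrial membrane pores Vdac1, at 410 ± 24.3 CPM in the control and 458 ± 55.2 CPM in the libraries labelled knockout, and Vdac2, at 329 ± 13.5 and 332 ± 23.2 CPM. Of 10 channel genes of skeletal muscle 9 were tested. All 9 lay above 0, with a median of 0.58, and none passed (edgeR, again 2 at an unadjusted p under 0.05, 0 in DESeq2 and in limma-voom). Cacna1s, the voltage sensor of muscle contraction, was at 0.70 ± 0.34 and the muscle sodium channel Scn4a at 0.81 ± 0.40, and both turned below 0 with the muscle score as a covariate, at -0.17 and -0.11. As both are muscle genes and the score averages other muscle genes, a fall is built into that fit. The cause of their difference was not tested. Cacna1s shares exon bases with an antisense gene, so its value is uncertain.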

How the data were processed

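The deposited values are raw read counts per gene, which the authors did not normalize, per the file header and the values. The tools named in the submitters' processing notes are HISAT2, featureCounts of Subread, Trimmomatic, SAMtools and FastQC, with GRCm38. The sources used here do not give their versions, settings or strand mode. Libraries were stranded mRNA, per the labels' protocols. Titles gave the groups, and the titles call the 8 samples separate mice. Every pair of libraries differed by more than sampling noise (chi-square 10.4 to 79.0 per degree of freedom).

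From the counts, filterByExpr left 13756 genes. CPM used TMM-scaled library sizes, and groups were compared in R 4.3.3 with the quasi-likelihood test of edgeR 4.0.16, with p-values adjusted by Benjamini-Hochberg over all genes at 0.05. The SE is the log2 fold change divided by the root of F. Alternatives, among them DESeq2 1.42.0 and limma-voom (limma 3.58.1), are in the closing section. GENCODE M21 (GRCm38) gave positions, exon lengths and overlaps for 99.8% of the IDs, and may not be the annotation used for counting. The test was checked on simulated counts, where it recovered 37.3% of 1.5-fold, 89.6% of 2-fold and 100% of 4-fold changes. Of its calls there, 5.73% were false. The simulated libraries had the same variation for every gene and no shared difference in muscle RNA. Changes were placed only in genes above the lowest levels, so recovery in the real data may be lower. A gene that did not pass may therefore still differ, most of all where the difference is under 1.5-fold, but also above it. Reads carry no molecular identifiers, so floors of 3 counts and intervals cover counting error only. The genes and lists were chosen with earlier results of these data known. Named are relatives at a mean of 1 CPM or more in a group and, since none passed, the most abundant genes of each list.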

Additional observations from a re-analysis of the deposited data

Results flagged for a closer look

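None of the 10 channel genes had a library that stood far from the other 3 of its group by Dixon's test at the 95% level. Of 62 groups checked for 31 named genes, 3 did, where chance alone gives about 1 in 20. Other genes named with values, such as P2rx1, P2rx7, Plin1 and Ucp1, were not checked. Pparg in control 3 was at 186 CPM against 200 to 202 CPM in the other controls. Kcnk2 in labelled knockout 3 was at 2.48 CPM against 3.19 to 3.32 CPM. Ace, a neighbour of Kcnh6, was at 21.3 CPM in control 2 against 16.6 to 17.4 CPM.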

How the results depend on the processing

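The number of genes called, 53, rose to 384 in DESeq2, 187 with no filter on low counts and 155 with the mouse number as a replicate block, and fell to 11 with the muscle score added as a covariate. It lay between 24 and 75 when each library was left out. Same-numbered libraries did not deviate together in every pair (correlations 0.024, 0.404, 0.032 and 0.172), so the numbers were not taken as pairs, and under the block no channel gene outside those chosen for their difference was called. Of the relatives and other channels 0 were called, and 1 was in DESeq2, 1 with no filter and 0 to 1 when each library was left out. Of the 8 channel genes 0 were called, against 1 in DESeq2 and 0 in every fit that left out a library. With the longest transcript as length, 16 of 20 places in the order of levels stayed. Values that turned sign with that covariate were -0.09 for Clic5, -0.03 for Trpv2, -0.05 for Lrrc8a, 0.03 for Kcnk2, 0.15 for P2rx6, -0.24 for Lrrc8c, -0.17 for Cacna1s, -0.11 for Scn4a and -0.09 for Rcan1. Trpv2 was -0.04 in limma-voom and Trpv4 0.01 with total counts. When each library was left out, the range crossed 0 for P2rx5 (-0.14 to 0.02), Trpv2 (-0.17 to 0.20), Lrrc8a (-0.03 to 0.14), Myl1 (-0.22 to 0.12), Kcnk2 (-0.28 to 0.01), P2rx6 (-0.17 to 0.03), Trpv4 (-0.09 to 0.11), Lrrc8c (-0.11 to 0.18) and Vdac2 (-0.03 to 0.05). The call of Pparg was lost without any 1 library (adjusted p 0.0505 to 0.119) and with the covariate (0.0939). The cause of these changes was not tested. These checks covered 31 named genes, not every gene named with a value. Of their 557 values, 512 kept direction and side of the threshold. The stricter filter (CPM of at least 1 in 4 libraries) removed Clic6, which rests on 4 control counts.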

Other observations

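After the group means were subtracted from the log2 CPM, some channel genes deviated together over the 8 libraries. Given as descriptions, Pearson's r was 0.85 for Kcnk3 with Otop1 (Spearman's rho 0.86) and 0.79 for Clic4 with Clic5 (0.83). Kcnk3 and Lrrc8a deviated in opposite directions, at -0.94 (-0.93). Points share library depth and tissue makeup. Of 8429 genes at a mean of at least 10 CPM, those most like Kcnk3 were Nol3, Npr3 and Lclat1, all at 0.991, but 246 genes exceeded 0.9. The closest to Kcnh6 were Ppm1l (0.971), Casq1 (0.953) and Ube2b (0.947), with 24 genes above 0.9. These are the highest of 8429 values over 8 libraries. How many genes would exceed 0.9 by chance was not tested. No likeness is given for Clic6, which had 0 to 2 counts in the control libraries.

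Of 55 tested genes within 100 kb of the 10 channel genes none passed (edgeR, 11 at an unadjusted p under 0.05, where 15.2% of all genes tested were). Their log2 fold changes ran from -0.47 to 1.40, the highest being a pair of stress-induced chaperone genes near Clic1, Hspa1b (1.40) and Hspa1a (1.36), both chosen after their values were seen, whose near-identical copies can share reads.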
